A study of Mus musculus with 3 samples.

Results

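Cajal-Retzius cells were described in mouse prefrontal cortex at postnatal day 6, after the mice had inhaled sevoflurane at about 3%. A cell was counted as one when its Reln value reached ln(3), which is a corrected count of 2 or more, and when at least 2 of Ndnf, Nhlh2, Lhx1 and Trp73 were above 0. The rule kept 79 of 14192 cells. The cells were thus chosen by their values of these 5 genes, which are given as a description and without a test. Every library came from 1 group of mice of both sexes with that exposure; no unexposed mice were analysed here, and neither genotype nor strain is given in the labels. The labels list 3 libraries made with 10x Genomics Chromium, a droplet method for single cells, and do not say whether each was 1 animal or a pool, so p-values measure the spread between these libraries, which may be technical. Cajal-Retzius cells were compared with 126 excitatory-lineage cells, which had at least 2 of Neurod6, Tbr1 and Neurod2 and missed the Cajal-Retzius rule. A further 2252 cells with at least 3 of Dlx1, Dlx2, Sp9 and Dlx6os1 that met neither rule are called Dlx-positive neuroblasts, and the remaining 11735 cells are called other cells. All of these cells shared the same exposure, age and tissue.

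Cajal-Retzius cells are among the earliest neurons of the cerebral cortex. They lie in the marginal zone, the future layer 1, just under the pia, and secrete reelin, a large extracellular glycoprotein. Reelin binds the lipoprotein receptors Vldlr and Lrp8 on migrating neurons, the adaptor Dab1 is then phosphorylated by Src-family kinases, and newborn neurons settle in the proper layers. The cells arise outside the main cortical neuroepithelium, at its borders such as the cortical hem and septum, migrate tangentially, release glutamate, and mostly die in the first postnatal weeks in the mouse neocortex.

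Cajal-Retzius cells numbered 31 of 4775 cells in library 1, 32 of 5134 in library 2 and 16 of 4283 in library 3. Their share was 0.649% (exact 95% Clopper-Pearson interval 0.442 to 0.920%) in library 1, 0.623% (0.427 to 0.879%) in library 2 and 0.374% (0.214 to 0.606%) in library 3, intervals that cover counting error only. The mean was 0.549 ± 0.152% (SD, n = 3 libraries). Excitatory-lineage cells numbered 35, 85 and 6 in libraries 1, 2 and 3, and Dlx-positive neuroblasts 960, 533 and 759. Because library 3 held only 6 excitatory-lineage cells, under the minimum of 10, the test against that group used libraries 1 and 2, while the test against neuroblasts used all 3.

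On the genes that the rule used, Cajal-Retzius cells lay apart from all other cells, which describes the gate only. The lowest Reln in a Cajal-Retzius cell was 8 corrected counts and the next was 13, against a highest value of 5 in all other cells. Among the 79 cells, 64 had all 4 companion genes, 13 had 3 and 2 had 2. Just outside the gate, 15 cells had Reln at 2 to 5 corrected counts, and none of them had any of the 4 companion genes. No cell outside the gate had more than 1 of the 4.

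**Figure D1:**
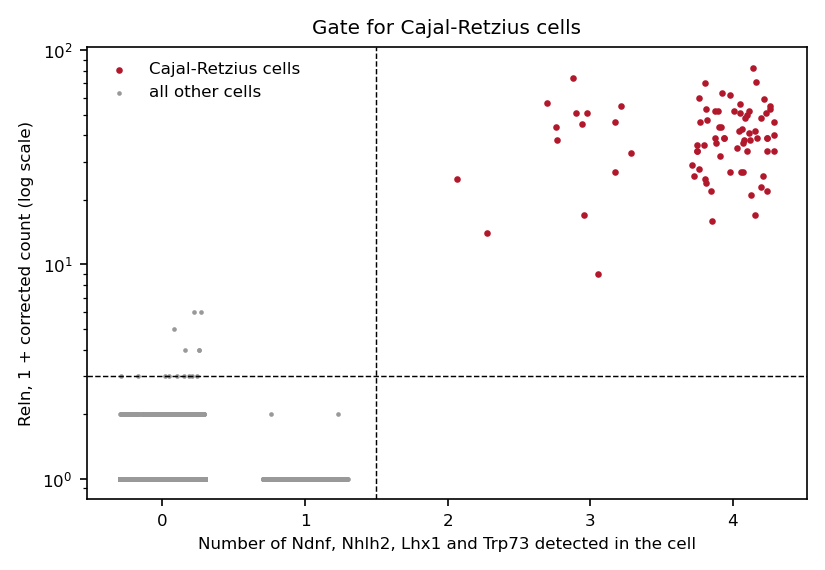
Reln per cell (vertical axis, 1 + corrected count, log scale) against the number of Ndnf, Nhlh2, Lhx1 and Trp73 detected (horizontal axis, points spread sideways for visibility), with Cajal-Retzius cells in red and all other cells in grey; dashed lines mark the gate. The 79 red cells start at 8 corrected counts of Reln, and no grey cell exceeds 5 or has more than 1 of the 4 companion genes.

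Reln (chr5:21884454-22344702 on the minus strand of GRCm38) averaged 5785, 5434 and 6388 CPM in Cajal-Retzius cells of libraries 1, 2 and 3, where CPM scales each cell's corrected counts to a common total, against 4.41, 1.7 and 0 CPM in excitatory-lineage cells and 1.88, 2.58 and 0.849 CPM in neuroblasts. Ndnf (chr6:65671590-65712326, plus strand), a secreted factor, averaged 3791 ± 274 CPM (SD, n = 3 libraries) and the basic helix-loop-helix factor Nhlh2 (chr3:102010076-102015492, plus strand) 989 ± 63.9 CPM in Cajal-Retzius cells. Both genes were found in all 79 of them, while the rule asked for any 2 of the 4 companion genes. The LIM-homeodomain factor Lhx1 (chr11:84518284-84525535, minus strand) was found in 69 cells at 294 ± 12.8 CPM. Trp73 (chr4:154056253-154140208, minus strand), a p53-family factor on which Cajal-Retzius survival depends in mice, was found in 72 cells at 294 ± 52.5 CPM. Per cell, Reln had a median of 38 corrected counts (range 8 to 82), Ndnf 25 (7 to 40), Nhlh2 7 (1 to 17), and Lhx1 and Trp73 2 each.

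The label was checked against markers of other cells. Ndnf and Reln also mark neurogliaform interneurons of layer 1, so markers of those cells were examined. Lamp5 and Npy were at 0 in all 79 cells, which allows up to 5.53 CPM over the group (3 counts of its total), whereas Id2 had 32.9, 106 and 26.8 CPM, Hapln1 0, 13.8 and 0 CPM and Cxcl14 0, 13.8 and 0 CPM in Cajal-Retzius cells of libraries 1, 2 and 3. These 5 markers summed to 26.8 to 133 CPM in Cajal-Retzius cells, against 498 to 1399 CPM in excitatory-lineage cells and 153 to 288 CPM in neuroblasts, and 3 Cajal-Retzius cells had 2 or more of them. The interneuron genes Lhx6, Dlx5, Sst and Vip were at 0 as well. Most of these zeros say little in 79 cells, because the genes were rare elsewhere too. Outside the gate, Lamp5 was found in 0.106% of cells, Lhx6 in 0.0992%, Sst in 0.376%, Vip in 0.085%, Npy in 1.95% and Dlx5 in 12.5%. Gad1 or Gad2, the enzymes that make GABA, had a count in 3 Cajal-Retzius cells. Tbr1, a T-box factor shared with early glutamatergic neurons, was found in 77 cells, whereas Neurod6 or Neurod2 was found in 1. The 12 interneuron and neuroblast markers summed to 4.63 to 80.02 CPM over libraries in Cajal-Retzius cells, against 62.0 to 345 CPM in excitatory-lineage cells and 4294 to 5134 CPM in neuroblasts. Astrocyte and endothelial markers summed to 294 and 400.4 CPM in Cajal-Retzius cells of library 2, against 8.82 to 28.0 and 6.06 to 17.7 CPM in those of the other 2 libraries. Among the 79 cells, 6 had 2 or more of the 5 astrocyte markers and 1 had 2 or more of the 3 endothelial markers. Microglial markers summed to 71.5, 178 and 26.8 CPM in libraries 1, 2 and 3, and 3 Cajal-Retzius cells had 2 or more of those 5. The gate genes are no check of the label, since they chose the cells; Calb2 and other identity genes that the gate did not use are given below.

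Depth and markers of other cell types differed between the groups compared. The median corrected total per cell was 6896 in Cajal-Retzius cells, 5081.5 in excitatory-lineage cells and 5068.5 in neuroblasts, and the median number of detected genes was 3293 in Cajal-Retzius cells, 2202.5 in excitatory-lineage cells and 1896.5 in neuroblasts. The scaling to CPM removed the difference in totals but not in detected genes, and the part of this in the results was not tested. The 5 erythroid markers summed to 287, 391 and 531 CPM in Cajal-Retzius cells of libraries 1, 2 and 3, against 36159, 6871 and 1850.0 CPM in excitatory-lineage cells. Fibroblast and meningeal markers summed to 42.3, 49.7 and 54.5 CPM in Cajal-Retzius cells, against 4.23, 4.01 and 0 CPM in excitatory-lineage cells and 20.1, 4.99 and 3.94 CPM in neuroblasts. Most of this came from Col1a1, which averaged 44.1 CPM over Cajal-Retzius cells and was found in 25.3% of them, against 1.18% of cells outside the gate. Dcn and Col1a2 averaged 1.82 and 1.88 CPM, and Igf2 and Lum were at 0. No Cajal-Retzius cell had 2 or more of the 5, and the part of these sums in the results was not tested. Scrublet called 287 of all cells doublets (2.02%), among them 2 Cajal-Retzius cells, 2 excitatory-lineage cells and 97 neuroblasts; they stayed in. Of 90 barcode sequences present in more than 1 library, 1 belonged to a Cajal-Retzius cell, and no 2 Cajal-Retzius cells shared one. Of the 126 excitatory-lineage cells, 65 had Eomes, a factor of intermediate progenitors, and 13 had 2 or more of 4 division genes.

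Cajal-Retzius cells differed from both neuronal groups at many genes. Against excitatory-lineage cells, 2030 of 9710 genes tested were higher (20.9%) and 1525 lower (15.7%), 36.6% in all, at a Benjamini-Hochberg adjusted p under 0.05 with limma. Against neuroblasts, 3221 of 9476 were higher (34.0%) and 2140 lower (22.6%), 56.6% in all. The share of higher among called genes depended on scaling: with each library mean centred on its median gene, 1578 were higher and 1974 lower than in excitatory-lineage cells, and 2396 higher and 2970 lower than in neuroblasts. The 2 comparisons share the Cajal-Retzius values and are not independent. The first rests on 2 libraries and 1 residual degree of freedom, and its spread came wholly from the trend over all genes, so its smallest p-values say little beyond having passed; those against neuroblasts, from 3 libraries, are the ones printed here. Of the 3555 genes called against excitatory-lineage cells, 2962 (83.3%) had the same direction in library 3, which the test did not use, against 57.7% of genes not called. With library 3 in the fit despite its 6 excitatory-lineage cells, 1394 genes were higher and 943 lower, and 755 and 503 without library 1, and 852 and 550 without library 2. Fold changes below are log2 ratios of mean CPM with 10 CPM added to both groups, which draws those of weakly expressed genes toward 0, and are given ± SE; where 2 are paired, the first is against excitatory-lineage cells and the second against neuroblasts.

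**Figure D2:**
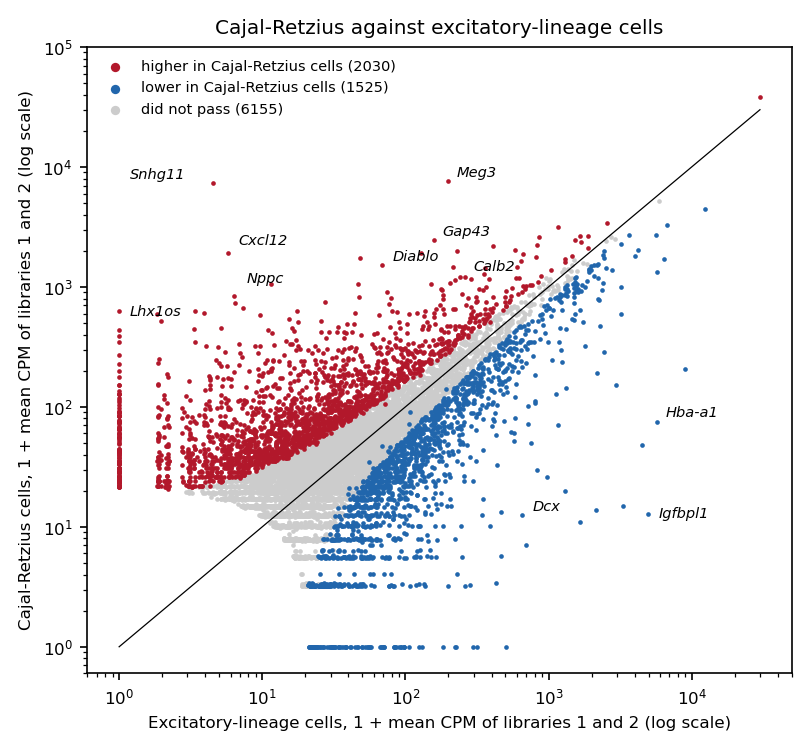
Mean CPM per gene in Cajal-Retzius cells (vertical axis) against excitatory-lineage cells (horizontal axis), both as 1 + the mean of libraries 1 and 2 on log scales; red and blue points passed the test in each direction and the line marks equal values. Snhg11, Cxcl12, Nppc and Lhx1os lie above the line with few or no counts in excitatory-lineage cells, and Igfbpl1 and Dcx lie below it.

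The 12 genes with the largest increase over excitatory-lineage cells were Snhg11, Cxcl12, Lhx1os, Nppc, Syndig1l, Eef1a2, Clstn2, Dync1i1, Cacna2d2, Ache, Dkk3 and Meg3. Snhg11, a small nucleolar RNA host gene, had 7466, 7182 and 6960.1 CPM in Cajal-Retzius cells, against 4.69, 2.35 and 0 CPM in excitatory-lineage cells and 13.9, 15.6 and 14.1 CPM in neuroblasts, a log2 fold of 9.09 ± 0.21 over the first and 8.20 ± 0.11 over the second (limma, adjusted p = 9.29e-13). Cxcl12, a chemokine whose receptor Cxcr4 steers Cajal-Retzius migration, had 2141, 1669.7 and 1675 CPM, against 5.18, 4.27 and 0 CPM in excitatory-lineage cells and 11.4, 7.65 and 3.73 CPM in neuroblasts. No library of Cajal-Retzius cells overlapped those of the other groups for either gene. Library means that do not overlap were common, at 65.6% of genes against excitatory-lineage cells and 65.5% against neuroblasts.

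Nppc, which encodes C-type natriuretic peptide, had 922, 761 and 919.8 CPM in Cajal-Retzius cells, against 5.82, 4.8 and 0 CPM in excitatory-lineage cells. Acetylcholinesterase (Ache) had 625, 584 and 622 CPM, against 4.14, 1.74 and 0 CPM in excitatory-lineage cells, and calsyntenin 2 (Clstn2), a postsynaptic cadherin-family protein, 685, 566 and 568 CPM, against 0, 4.74 and 0 CPM in excitatory-lineage cells. The imprinted long noncoding RNA Meg3 was among the most abundant of all, with 7853, 7444 and 8595 CPM in Cajal-Retzius cells; excitatory-lineage cells had 316, 79.3 and 3157 CPM, the last value from the 6 cells of library 3. All 12 genes were higher against neuroblasts too, by log2 folds from 2.57 ± 0.18 for Meg3 to that of Snhg11. Against neuroblasts, Pcp4 (log2 fold 6.89 ± 0.14), Nrn1 (6.32 ± 0.17), Ppp2r2c (5.81 ± 0.18) and Ramp1 (5.73 ± 0.15) also ranked among the 12 largest. Ramp1, a partner of the receptor for calcitonin gene-related peptide, had 1798, 1677 and 2288 CPM in Cajal-Retzius cells, against 37.5, 56.2 and 0 CPM in excitatory-lineage cells.

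Several transcripts known from newborn neurons were at or near 0. Igfbpl1 had 0, 23.5 and 9.42 CPM in Cajal-Retzius cells, against 4741, 5159.8 and 3215 CPM in excitatory-lineage cells and 1634, 1658 and 1661 CPM in neuroblasts (log2 folds of -8.08 ± 0.21 and -6.48 ± 0.25). Sox11, a factor of newborn neurons, had 0, 28 and 0 CPM, against 3317, 3297 and 2215 CPM in excitatory-lineage cells and 2776, 2537 and 2709 CPM in neuroblasts. The homeobox factor Meis2 had 6.06, 14.1 and 0 CPM, against 1746, 1567 and 1068 CPM in excitatory-lineage cells, and the POU factor Pou3f2 12.1, 0 and 0 CPM, against 799.7, 600.5 and 348 CPM in excitatory-lineage cells. At each of these genes every Cajal-Retzius library lay below every library of the other groups named. Sema3c, a secreted semaphorin, was at 0 in all 79 Cajal-Retzius cells, against 439, 570.2 and 299 CPM in excitatory-lineage cells, at least 78.8-fold lower with 3 counts over the group as the floor. The other 3 of the 8 largest decreases were hemoglobin genes, Hbb-bt, Hba-a1 and Hba-a2, which themselves make up most of the erythroid sum given above. A few cells carried them: without the 3 excitatory-lineage cells over 10000 CPM of erythroid markers, 2 of them in library 1, the log2 folds of -6.14 ± 0.24, -5.65 ± 0.17 and -5.98 ± 0.19 became -0.56, which did not pass, -1.34 and -1.02.

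Identity factors that the rule did not use were high as a group. Of 24 listed genes 22 could be tested against excitatory-lineage cells, and 19 were higher, 1 lower and 2 did not pass, with a median log2 fold of 2.80 (2.81 with genes at 0 on 1 side set to their bound) beside 0.11 over all genes tested. Against neuroblasts 19 of 21 were higher and 1 lower, with a median of 3.85 (4.45 with bounds) beside 0.21. This list was written with earlier results of these data and the literature on the cell type known, so its direction is not independent evidence.

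The marker protein calretinin (Calb2) had 1339, 1060.4 and 1429 CPM in Cajal-Retzius cells, against 186, 332 and 30.8 CPM in excitatory-lineage cells and 26, 17.5 and 108 CPM in neuroblasts (log2 folds of 2.21 ± 0.17 and 4.71 ± 0.26, the second with limma adjusted p = 4.42e-08). The orphan nuclear receptor Nr2f2 had 599.6, 566 and 741 CPM, against 17.2, 0 and 0 CPM in excitatory-lineage cells and 10.7, 4.36 and 4.67 CPM in neuroblasts, and the homeobox factor Emx2 441, 404 and 517 CPM, against 31.4, 25.4 and 0 CPM in excitatory-lineage cells and 13.8, 13.3 and 6.8 CPM in neuroblasts. None of these groups overlapped. Among other factors, Ebf3, typical of the hem and septum, averaged 181 ± 11.4 CPM (SD, n = 3), Zic1 214 ± 42.5 CPM, Barhl2 135 ± 25.2 CPM and Lhx5 142 ± 31.1 CPM in Cajal-Retzius cells. Ebf3 was at 0 in excitatory-lineage cells, which makes it at least 41.4-fold higher in Cajal-Retzius cells, and Lhx5 was at 0 there too (at least 32.5-fold). Zic1 had the smallest gap of these, with 53.9, 57.7 and 33.1 CPM in excitatory-lineage cells and 82.2, 64.5 and 121 CPM in neuroblasts.

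Islr2 did not pass against excitatory-lineage cells (log2 fold 0.13 ± 0.19) and was the 1 listed gene lower against neuroblasts (-0.38 ± 0.15), a call lost without library 2 or 3 (-0.46 and -0.15) and reversed on the mean of deposited ln values. The 1 listed gene lower against excitatory-lineage cells was Ppp1r14c, with 4.7, 0 and 0 CPM in Cajal-Retzius cells, against 45.2, 52.1 and 111 CPM in excitatory-lineage cells. Cxcr4, the receptor for Cxcl12, had 96.6, 135 and 117 CPM, against 5.57, 26.9 and 0 CPM in excitatory-lineage cells and 3.78, 5.72 and 1.17 CPM in neuroblasts (log2 fold 3.22 ± 0.25 over the last, limma adjusted p = 6.38e-07). In every library, ligand and receptor were both higher in Cajal-Retzius cells than in either other group.

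**Figure D3:**
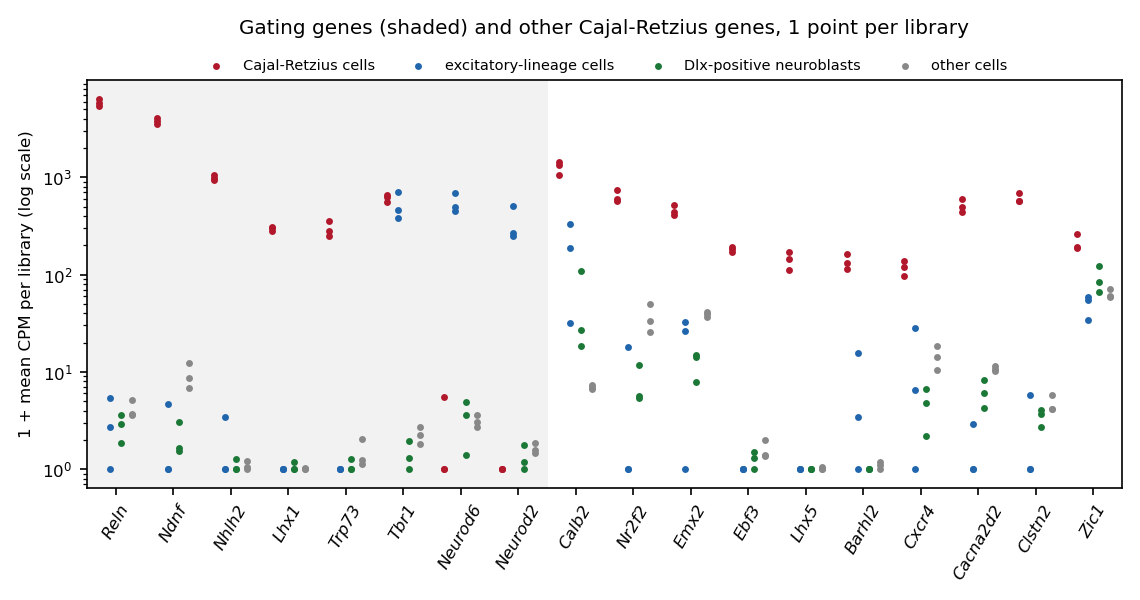
Mean CPM per library (1 + CPM, log scale) of the 8 genes used for the gates (shaded) and of 10 others, with 1 point per library for Cajal-Retzius cells, excitatory-lineage cells, Dlx-positive neuroblasts and other cells, left to right. Red points lie above the rest for Calb2 to Zic1, and Tbr1 is shared with excitatory-lineage cells.

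Across the whole table, 21 genes were detected in at least 80% of Cajal-Retzius cells and in under 2% of all other cells, thresholds set after the data had been seen. They include the gate genes Reln, Nhlh2, Lhx1, Trp73 and Tbr1, and 16 others: Syndig1l, Nppc, Clstn2, Lhx1os, Kcnip2, Gdf5, Mrap2, Slc17a6, Celf6, Cd274, Eno2, Ankrd35, Slc24a2, Gm27199, Lingo2 and Golga7b. Excitatory-lineage cells were only 126 of the 14113 other cells, so a gene found in all of them could still pass. Tbr1 and Slc17a6 are on the list although excitatory-lineage cells express both. Gdf5, a bone morphogenetic protein family ligand, was found in 93.7% of Cajal-Retzius cells and 0.198% of others. Mrap2, an accessory protein of melanocortin receptors, was found in 92.4% of Cajal-Retzius cells and 0.085% of others. Cd274, the immune checkpoint ligand PD-L1, was found in 87.3% of Cajal-Retzius cells and 0.368% of others. Cd274 averaged 449, 334 and 270.2 CPM in Cajal-Retzius cells and was at 0 in excitatory-lineage cells of every library. At the other end, 211 genes were found in all 79 Cajal-Retzius cells.

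The LIM-homeodomain genes Lhx1 and Lhx5 were each accompanied by a noncoding RNA read from the opposite strand. Lhx1os (chr11:84525660-84535831, plus strand) starts beyond the start of Lhx1, with 124 bases between the 2 start sites, and runs away from it. Gm27199 (chr5:120419659-120431767, minus strand) overlaps the first 69 bases of Lhx5 (chr5:120431699-120441223, plus strand). Strand-aware counting is not stated, so whether reads within that overlap were told apart is not known. Lhx1os was found in 77 Cajal-Retzius cells and Lhx1 in 69, both in 68, against 23 and 2 of the 14113 cells outside the gate. Gm27199 was found in 65 and Lhx5 in 52, both in 42, against 6 and 1 outside. Both noncoding RNAs were at 0 in excitatory-lineage cells, which makes Lhx1os at least 149-fold and Gm27199 at least 52.9-fold higher in Cajal-Retzius cells. Lhx1 was a gate gene, and whether either pair was detected together more often than its members' separate shares give was not tested. The stretch between the Lhx1 and Lhx1os start sites, which faces both transcripts, is shown as a description. It lies at chr11:84525536-84525659 and is given on the plus strand from RefSeq on GRCm38.p6. Capitals mark its 1 CCAAT, a motif searched on both strands (ATTGG on the other). The motif is present in 21.7% of all RefSeq promoter windows of that length.
Lhx1 to Lhx1os: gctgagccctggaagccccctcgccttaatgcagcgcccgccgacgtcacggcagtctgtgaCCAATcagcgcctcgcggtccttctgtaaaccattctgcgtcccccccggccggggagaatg

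LIM-homeodomain proteins bind DNA with a TAATTA core in general, and that palindrome was looked for in the 250 bases before the start sites of the 21 genes. Of these, 18 had 24 RefSeq promoter entries, and 4 entries, of Tbr1, Slc17a6, Slc24a2 and Lingo2, held TAATTA, against 4.84% of all 32851 entries. The entries for the glutamatergic genes Tbr1 (chr2:61804203-61804452, plus strand) and Slc17a6 (chr7:51624387-51624636, plus strand) are shown with the motif in capitals. Tbr1 was also a gate gene, and a match is a description of these letters only.
Tbr1: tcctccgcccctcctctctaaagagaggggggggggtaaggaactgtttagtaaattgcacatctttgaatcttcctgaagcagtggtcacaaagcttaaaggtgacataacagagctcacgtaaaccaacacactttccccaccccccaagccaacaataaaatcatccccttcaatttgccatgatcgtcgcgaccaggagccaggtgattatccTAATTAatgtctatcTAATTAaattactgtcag
Slc17a6: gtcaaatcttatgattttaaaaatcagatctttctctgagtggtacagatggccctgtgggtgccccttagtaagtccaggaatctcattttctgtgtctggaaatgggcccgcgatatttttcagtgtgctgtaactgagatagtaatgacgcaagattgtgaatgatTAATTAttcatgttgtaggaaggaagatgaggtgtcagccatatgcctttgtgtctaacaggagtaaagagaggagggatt

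Among genes of reelin signalling, the receptor Lrp8 was lower in the cells that make reelin. Of 22 listed pathway genes, 16 could be tested against excitatory-lineage cells, and 2 were higher, 4 lower and 10 did not pass, beside 20.9% higher and 15.7% lower over all genes tested, with a median log2 fold of -0.19 beside 0.11. Against neuroblasts 2 of 17 were higher and 8 lower, beside 34.0% and 22.6%, with a median of -0.46 beside 0.21. These shares and medians over all genes are also the background of each list below, and with so few genes the counts against excitatory-lineage cells are not read as a result on the pathway. The receptor Lrp8 had 9.28, 26.9 and 18.3 CPM in Cajal-Retzius cells, against 163, 191 and 89.5 CPM in excitatory-lineage cells and 60.9, 62.4 and 63.4 CPM in neuroblasts (log2 folds of -2.81 ± 0.34 and -1.41 ± 0.26, the second with limma adjusted p = 6.02e-04). The other receptor, Vldlr, had 0, 13.6 and 18 CPM, against 22, 15.9 and 27.4 CPM in excitatory-lineage cells and 12.4, 13.5 and 22.6 CPM in neuroblasts, and its difference did not pass in either comparison. The adaptor Dab1 had 0, 4.47 and 0 CPM, against 24.8, 26.1 and 40 CPM in neuroblasts (log2 fold -1.81 ± 0.32, limma adjusted p = 4.52e-04), and fell under the level minimum against excitatory-lineage cells, which had 8.83, 18.3 and 85.7 CPM. Fyn, a Src-family kinase that phosphorylates Dab1, was lower in both comparisons (-1.11 ± 0.31 and -1.63 ± 0.19), as were the adhesion genes Cdh2 (-1.497 ± 0.22 and -1.15 ± 0.17) and Itgb1 (-1.64 ± 0.30 and -1.16 ± 0.23). Src itself went the other way against excitatory-lineage cells, with a log2 fold of 1.29 that passed, and was not called against neuroblasts. Pafah1b1, the Lis1 gene of dynein-driven migration, was higher in both (0.74 ± 0.21 and 0.74 ± 0.12). The calls for Itgb1 and Pafah1b1 against excitatory-lineage cells were lost with library 3 included. The reelin-cleaving proteases Adamts2 and Adamts3 were at 0 in all 79 cells and were found in only 0.553% and 1.21% of cells outside the gate.

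Cajal-Retzius cells carried the transcripts of a glutamatergic neuron. Slc17a6, the vesicular glutamate transporter VGLUT2, had 505, 383 and 479 CPM in Cajal-Retzius cells, against 206, 148 and 258 CPM in excitatory-lineage cells and 0, 0.38 and 0 CPM in neuroblasts, where 1 library had any count. Its log2 fold was 1.28 ± 0.21 over excitatory-lineage cells and 5.51 ± 0.21 over neuroblasts (limma, adjusted p = 2.12e-09). Slc17a7, the transporter VGLUT1 of mature cortical neurons, was at 0 in all Cajal-Retzius cells and Slc17a8 had 0, 8.93 and 0 CPM. Slc17a7 was rare elsewhere too, found in 0.446% of cells outside the gate. Of the 5 glutamate release and uptake genes tested against excitatory-lineage cells, 2 were higher, Slc17a6 among them, Slc38a1 (-1.40 ± 0.28) and glutamine synthetase (Glul, -1.91 ± 0.25) were lower, and Slc38a2 did not pass. The call for Slc38a1 was lost with library 3 included. Genes of interneuron fate and GABA synthesis were lower against neuroblasts in 11 of 11 tested, where some genes of the same set chose the neuroblasts.

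Cortical excitatory factors other than Tbr1 were mostly lower than in the groups compared, though not all were scarce. Of 20 tested against excitatory-lineage cells 15 were lower and 3 higher, with a median log2 fold of -1.81, and of 16 tested against neuroblasts 9 were lower and 4 higher, with a median of -0.53. Neurod1, a proneural factor, was at 0 in all Cajal-Retzius cells, against 236, 213 and 193 CPM in excitatory-lineage cells, at least 38.7-fold lower; it often accompanies Neurod2 and Neurod6, which chose that group. Pou3f3 had 0, 9.42 and 0 CPM, against 497, 435 and 558 CPM in excitatory-lineage cells and 191, 209 and 139 CPM in neuroblasts. Nfib and Nfix were called lower in both comparisons too, yet averaged 952 and 766 CPM and were each found in 98.7% of Cajal-Retzius cells. Bhlhe22 went the other way, with 156, 167 and 145 CPM in Cajal-Retzius cells, against 105, 69 and 30.8 CPM in excitatory-lineage cells and 1.28, 0.305 and 0.265 CPM in neuroblasts (log2 fold 3.97 ± 0.24 over neuroblasts, limma adjusted p = 8.35e-08). Against excitatory-lineage cells its call (0.85 ± 0.28) was lost with all 3 excitatory genes required (0.22) or without Eomes-positive cells (0.64).

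Many ion channel genes were higher in Cajal-Retzius cells. Of 19 sodium, calcium and HCN channel genes tested against excitatory-lineage cells, 12 were higher, 0 lower and 7 did not pass (median log2 fold 1.62), and of 17 against neuroblasts 15 were higher and 0 lower (median 2.04). At an unadjusted limma p under 0.05, 0 were lower than in excitatory-lineage cells and 0 lower than in neuroblasts. Cacna2d1, a calcium channel accessory subunit, had 1157, 949 and 991 CPM in Cajal-Retzius cells, against 55.7, 36 and 97.2 CPM in excitatory-lineage cells and 9.56, 9.8 and 19.3 CPM in neuroblasts (log2 fold 5.53 ± 0.18 over the last, limma adjusted p = 8.76e-10). Its relative Cacna2d2 had 598, 438 and 496 CPM, against 0, 1.9 and 0 CPM in excitatory-lineage cells and 7.23, 5.1 and 3.2 CPM in neuroblasts. Both groups stayed clear of the Cajal-Retzius values in all libraries.

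Potassium channel genes were higher in 10 and lower in 3 of 17 tested against excitatory-lineage cells (median log2 fold 1.74) and higher in 11 and lower in 4 of 16 against neuroblasts (median 1.76). Kcnh7, of the ether-a-go-go family, had 433, 398 and 344 CPM in Cajal-Retzius cells, against 25.6, 49.9 and 30.8 CPM in excitatory-lineage cells and 22.3, 16.1 and 21 CPM in neuroblasts. The potassium leak channel Kcnk9 had 76.3, 72.4 and 63.6 CPM and was at 0 in excitatory-lineage cells, which makes it at least 16.2-fold higher in Cajal-Retzius cells. Kcnip4, an A-type channel partner, had 155, 123 and 207 CPM, against 5.9, 0 and 166 CPM in excitatory-lineage cells, and the 6 cells of library 3 reached into the Cajal-Retzius range.

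GABA-A receptors are among the known targets of sevoflurane, and their genes were high in part. Of 20 listed GABA-A and glycine receptor genes 9 could be tested against excitatory-lineage cells, and 4 were higher and 0 lower, and against neuroblasts 6 of 9 were higher and 0 lower, with median log2 folds of 0.46 and 1.82. At an unadjusted limma p under 0.05, 1 was lower in the first comparison and 0 in the second, and with centring on the median gene 1 and 0 were. The GABA-A receptor subunit Gabrg3 had 56.6, 54.3 and 44.4 CPM in Cajal-Retzius cells, against 0, 2.08 and 0 CPM in excitatory-lineage cells and 1.33, 1.24 and 0.577 CPM in neuroblasts, and the glycine receptor beta subunit Glrb 154, 149 and 171 CPM, against 41.7, 24.3 and 27.4 CPM in excitatory-lineage cells and 29.8, 33.5 and 27.5 CPM in neuroblasts. For both genes the Cajal-Retzius libraries lay above all others.

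Chloride transporters set whether GABA excites or inhibits a neuron. Slc12a2, the importer NKCC1, had 4.69, 4.7 and 8.87 CPM in Cajal-Retzius cells, against 29.7, 24.5 and 0 CPM in excitatory-lineage cells and 15.7, 15.7 and 15.9 CPM in neuroblasts (log2 fold -1.33 ± 0.50, which passed, and -0.69 ± 0.30, which did not). The call against excitatory-lineage cells was lost with library 3 included (-0.58), with a pseudocount of 1 CPM (-2.30) and with all 3 excitatory genes required (-0.98). The exporter KCC2 (Slc12a5) was under the level minimum, at 9.46, 0 and 0 CPM in Cajal-Retzius cells, against 5.88, 0 and 0 CPM in excitatory-lineage cells. The other exporters Slc12a4 (1.41 ± 0.40 and 1.77 ± 0.25) and Slc12a7 (2.31 ± 0.45 and 2.03 ± 0.28) were higher in both comparisons, the call for Slc12a4 against excitatory-lineage cells being lost with library 3 included or Eomes-positive cells left out. Of all 10 cotransport genes tested, 3 were higher and 1 lower than in excitatory-lineage cells, and 6 were higher and 0 lower than in neuroblasts, with 3 higher and 1 lower there after centring on the median gene, and 1 lower at an unadjusted limma p under 0.05.

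Glutamate receptor genes were split. Of 11 tested against excitatory-lineage cells 3 were higher and 5 lower (median log2 fold 0.26), and of 8 against neuroblasts 4 were higher and 2 lower (median 0.75). The obligatory NMDA receptor subunit Grin1 had 187, 141 and 153 CPM in Cajal-Retzius cells, against 15.7, 15.9 and 58.2 CPM in excitatory-lineage cells and 2.59, 3.76 and 7.63 CPM in neuroblasts. Its partner Grin2b had 4.57, 4.65 and 0 CPM, against 124, 54.7 and 110.3 CPM in excitatory-lineage cells and 13.6, 18.1 and 24.6 CPM in neuroblasts. Among AMPA receptor subunits, Gria4 (2.94 ± 0.43 and 2.07 ± 0.24) and Gria1 (1.42 ± 0.30 and 3.54 ± 0.23) were higher in both comparisons and Gria2 (-1.31 ± 0.20 and -0.70 ± 0.13), which makes these receptors impermeable to calcium, was lower in both, the call for Gria2 against neuroblasts being lost on the mean of ln values (-0.0176).

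**Figure D4:**
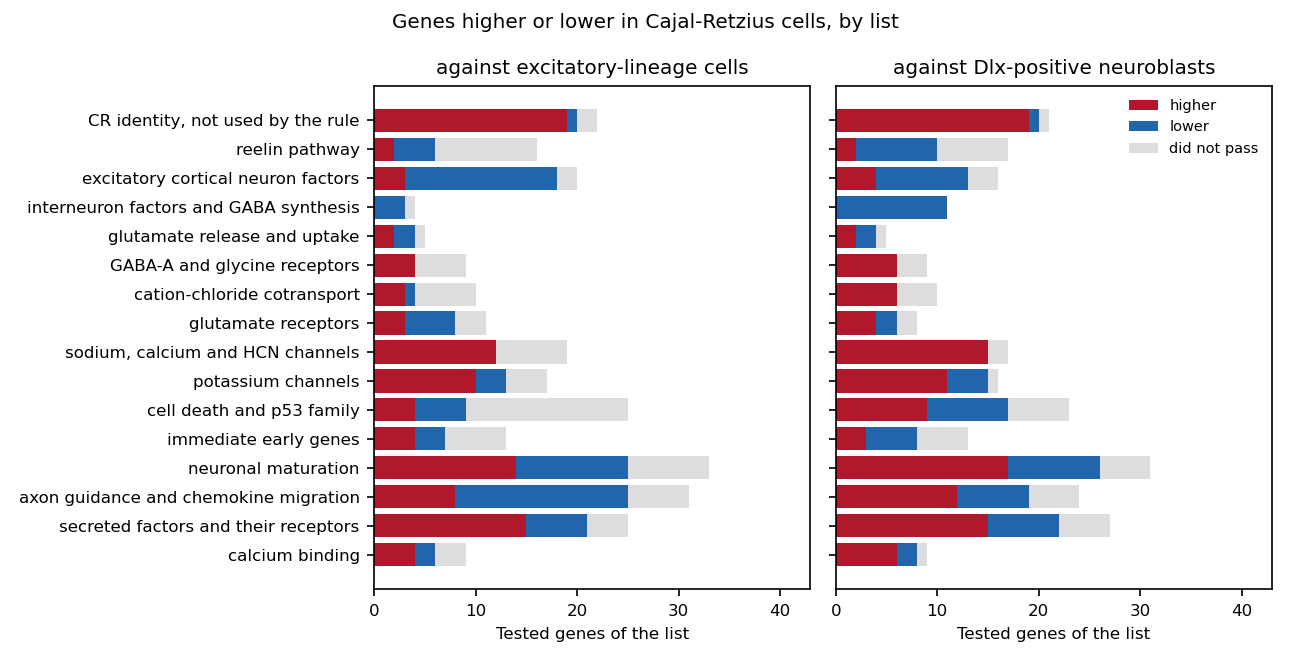
Number of tested genes in each of 16 lists (horizontal axis) that were higher (red) or lower (blue) in Cajal-Retzius cells or did not pass (grey), against excitatory-lineage cells on the left and against Dlx-positive neuroblasts on the right. Sodium, calcium and HCN channels have 12 and 15 genes higher and 0 lower, and the reelin pathway has 2 higher in each panel.

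Secreted factors and their receptors were higher in 15 and lower in 6 of 25 tested against excitatory-lineage cells (median log2 fold 1.32) and higher in 15 and lower in 7 of 27 against neuroblasts (median 0.79). Dkk3, a secreted protein of the Dickkopf family, had 702, 637 and 732 CPM in Cajal-Retzius cells, against 0, 12.6 and 0 CPM in excitatory-lineage cells and 13.6, 7 and 13.8 CPM in neuroblasts, and the granin Scg2 285, 291 and 333 CPM, against 0, 8.9 and 114 CPM in excitatory-lineage cells and 1.36, 2.06 and 4.21 CPM in neuroblasts. The Wnt inhibitor Sfrp1 was low, at 0, 4.48 and 0 CPM in Cajal-Retzius cells, against 201, 195 and 0 CPM in excitatory-lineage cells, both at 0 in library 3. Axon guidance genes leaned the other way against excitatory-lineage cells, with 8 higher and 17 lower of 31 (median -0.90), and not against neuroblasts, with 12 higher and 7 lower of 24 (median 0.76); the difference between the 2 comparisons was not tested. Epha4, an ephrin receptor, had 0, 4.53 and 8.87 CPM in Cajal-Retzius cells, against 232, 333 and 186 CPM in excitatory-lineage cells and 82.3, 88.3 and 33.3 CPM in neuroblasts, while the netrin receptor Unc5b had 135, 90.1 and 155 CPM, against 8.45, 3.53 and 0 CPM in excitatory-lineage cells and 3.56, 3.53 and 2.56 CPM in neuroblasts.

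Neuronal maturation genes moved in both directions. Of 33 tested against excitatory-lineage cells 14 were higher and 11 lower, and of 31 against neuroblasts 17 were higher and 9 lower (median log2 folds 0.30 and 0.57). Doublecortin (Dcx), a microtubule protein of migrating neurons, had 0, 23.1 and 0 CPM in Cajal-Retzius cells, against 628, 672 and 993 CPM in excitatory-lineage cells and 674, 639 and 837 CPM in neuroblasts. The synaptic vesicle sensor Syt1 had 721, 768 and 829.6 CPM, against 39.5, 13.7 and 342 CPM in excitatory-lineage cells and 10, 10.4 and 14.5 CPM in neuroblasts. No library overlapped for either gene. Calcium-binding genes other than Calb2 were higher in 4 and lower in 2 of 9 tested against excitatory-lineage cells and higher in 6 and lower in 2 of 9 against neuroblasts (median log2 folds 0.51 and 0.65), and after centring 2 were higher in the first. Caly, which encodes calcyon, was at 252, 198 and 243 CPM in Cajal-Retzius cells, against 22.1, 23.7 and 27.7 CPM in excitatory-lineage cells and 16.6, 14.8 and 9.58 CPM in neuroblasts. S100a10 was at 0, 4.45 and 0 CPM, against 55.3, 13.7 and 0 CPM in excitatory-lineage cells and 295, 274 and 223 CPM in neuroblasts, the call against excitatory-lineage cells being lost with library 3 included (log2 fold -1.14). Cenpf, a kinetochore gene singled out after its values were seen, was found in 66 Cajal-Retzius cells at 336, 317 and 289 CPM, against 107, 61.4 and 0 CPM in excitatory-lineage cells, although the division genes Mki67 and Top2a were found in 3 and 2 of them.

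Genes of cell death, of interest in a neuron that is eliminated after birth, showed no common direction. Of 25 tested against excitatory-lineage cells 4 were higher, 5 lower and 16 did not pass (median log2 fold 0.12 beside 0.11 over all genes), and of 23 against neuroblasts 9 were higher and 8 lower (median 0.08 beside 0.21). Diablo, which encodes the mitochondrial protein Smac that relieves caspase inhibition, stood apart, with 1646, 1380.3 and 1396 CPM in Cajal-Retzius cells, against 56.9, 78.2 and 27.7 CPM in excitatory-lineage cells and 90.5, 91.1 and 61.9 CPM in neuroblasts (log2 folds of 4.30 ± 0.20 and 4.04 ± 0.13, the second with limma adjusted p = 8.76e-10). The inhibitor Xiap that Smac binds had 90.1, 63 and 80.6 CPM, against 45.7, 52.9 and 0 CPM in excitatory-lineage cells and 33.6, 38.8 and 35.8 CPM in neuroblasts, with log2 folds of 0.53 ± 0.34, which did not pass, and 0.92 ± 0.22, which did. The pore-forming Bax was lower in both comparisons (-1.03 ± 0.23 and -0.69 ± 0.15). Bcl2l2, a survival member of the Bcl2 family, had 62.2, 44.9 and 90.8 CPM in Cajal-Retzius cells, was at 0 in excitatory-lineage cells (at least 15.1-fold higher in Cajal-Retzius cells) and had 7.36, 6.17 and 9.87 CPM in neuroblasts.

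Beside Trp73, which the rule used, Trp53 was low, with 32.7, 36.3 and 9 CPM in Cajal-Retzius cells, against 91.9, 142 and 181 CPM in excitatory-lineage cells and 160.3, 193 and 136 CPM in neuroblasts (log2 folds of -1.49 ± 0.33 and -2.36 ± 0.23), and Trp63 was at 0. The first call for Trp53 was lost when Eomes-positive cells were left out. Trp63 was found in only 0.205% of cells outside the gate. The cell cycle inhibitor Cdkn1a was higher in both comparisons (1.93 ± 0.38 and 1.14 ± 0.26). Birc5, needed for cell division, was lower in both (-0.89 ± 0.37 and -2.80 ± 0.23), but its direction against excitatory-lineage cells reversed when the dividing cells of that group were left out, to 2.04.

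Immediate early genes, which respond fast to activity and stress, were higher in 4 and lower in 3 of 13 tested against excitatory-lineage cells and higher in 3 and lower in 5 of 13 against neuroblasts (median log2 folds 0.60 and -0.46). After centring on the median gene, 2 were higher and 7 lower against neuroblasts. Fos, an activity-induced factor, had 88.7, 134 and 45.8 CPM in Cajal-Retzius cells, against 8.97, 15.4 and 55.4 CPM in excitatory-lineage cells and 16.3, 16 and 17.4 CPM in neuroblasts. Library 3 overlapped for Fos against excitatory-lineage cells. Fosl2 had 56.3, 63.4 and 81.6 CPM, against 0, 1.77 and 0 CPM in excitatory-lineage cells and 0.4, 1.55 and 1.66 CPM in neuroblasts, with no overlap, whereas Egr1 had 4.56, 8.91 and 0 CPM, against 51, 73.5 and 0 CPM in excitatory-lineage cells and 19.9, 18.8 and 15 CPM in neuroblasts. Against excitatory-lineage cells, the log2 folds of 2.44 ± 0.38 for Fos and -2.11 ± 0.43 for Egr1 became 1.55 and -1.40 with library 3 included, and neither then passed; in that library Egr1 was at 0 in both groups. Arc and Nr4a2 were at 0 in all 79 cells and were found in only 0.368% and 3.37% of cells outside the gate.

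Some well expressed genes were detected in only some Cajal-Retzius cells. A mean of at least 200 CPM and detection in 20 to 80% of the cells of every library held for 9 genes: Pnoc, Ass1, Cck, H1f0, Resp18, Hs3st1, Dda1, Dbi and Tmem258. Means in this range are few corrected counts per cell, so counting alone can leave cells without one: Dda1 and Tmem258 were each found in 75.9% and never above 4 corrected counts. Variation beyond counting was not tested for any of the 9. Of these, H1f0, Dbi and Tmem258 were found in over 65% of cells outside the gate, Dda1 in 39.1% and Resp18 in 15.7%, and the other 4 in under 4%. Pnoc, the precursor of the peptide nociceptin, was found in 54 of 79 cells, with a median of 2 corrected counts and a highest of 12. Cck, the precursor of cholecystokinin, was found in 40 cells and reached 13. Both peptides were found in 35 cells and neither in 20. Both genes were found in part of the cells of every library: Pnoc was found in 74.2, 62.5 and 68.8% of Cajal-Retzius cells in libraries 1, 2 and 3, and Cck in 64.5, 37.5 and 50%. Ass1, an enzyme of arginine synthesis, was found in 75.9% and Hs3st1, a heparan sulfate sulfotransferase, in 60.8%. In counts this low, a cell without a count may still hold the transcript.

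**Figure D5:**
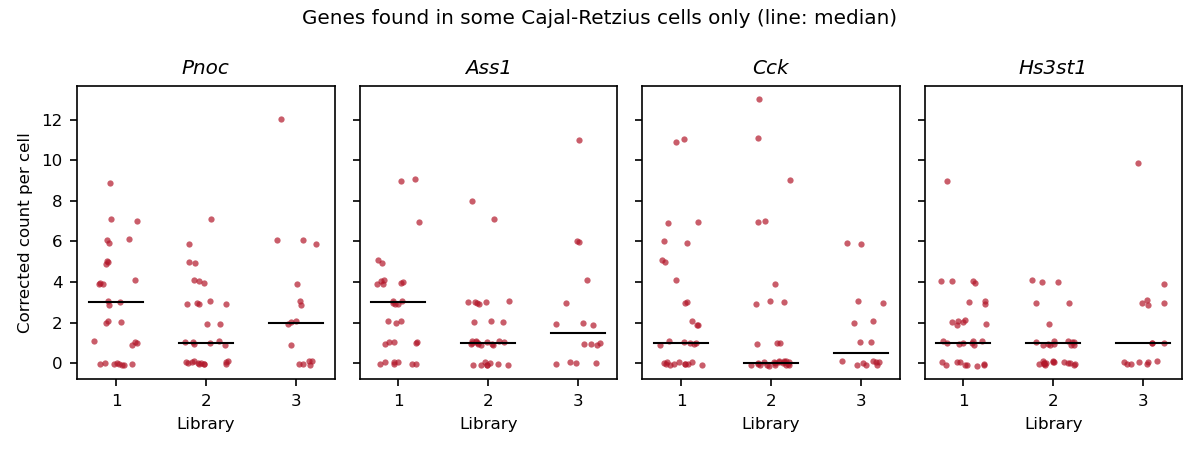
Corrected counts per Cajal-Retzius cell (vertical axis, points moved slightly to show overlaps) of Pnoc, Ass1, Cck and Hs3st1 in libraries 1, 2 and 3; each point is 1 cell and the line is the median. Each gene runs from 0 to at least 10 corrected counts, and every library holds cells with and without it.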

How the data were processed

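Prefrontal cortex cells of 3 libraries, all from exposed mice, were analysed. The labels describe tissue frozen and put in Trizol and do not say how single cells were obtained. The tools listed are CASAVA 1.8, Seurat and Cell Ranger, and the build mm10, per the submitters' processing notes; Cell Ranger and Seurat versions are not given in the sources used here. The authors deposited natural log values; each equals ln(1 + a whole corrected count), tested on all 34958786 values above 0 with a tolerance of 1e-06, and depth had been evened between cells by a method not given in the sources used here. Corrected counts are therefore not molecule counts, and intervals and floors cover counting error only. The table holds 20368 genes, and corrected totals per library ran from 24612481 to 29581504.

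Here, each cell was scaled to CPM and averaged per group and library, leaving out a library with under 10 cells of either group. These means, on a log2 scale after adding 10 CPM, went into limma 3.58.1 (R 4.3.3, trended spread, library as a block, since the cells of both groups come from the same libraries) for every gene averaging 10 CPM or more over both groups, with Benjamini-Hochberg adjustment over all of them; the gate genes were left out. Doublets were called with Scrublet in scanpy 1.11.5 (Python 3.11.15) and exact intervals with scipy 1.17.1. Positions are from GENCODE on GRCm38. Genes are named as the 12 largest increases and 8 largest decreases among called genes whose libraries do not overlap, and up to 3 called genes of each list; members of the identity, reelin, cell death and transmitter lists may be named whether or not called. Cd274, Cenpf, Gdf5, Gm27199, Gria2, Mrap2, Nfib, Nfix, Slc12a2, Slc12a5, Slc17a8, the genes named as at 0, and the genes named for detection in some of the cells fall outside that rule and were chosen after their values were seen. The cells' rule, the gene lists and the tests were chosen with earlier results of these data known. Alternatives changed the pseudocount, scale, centring, filter, block, gates, doublets and libraries. Some genes are not reported here.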

Additional observations from a re-analysis of the deposited data

How the results depend on the processing

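The share of Cajal-Retzius cells was 0.498 to 0.636% with 1 library left out, a range that by construction lies within the SD between libraries. It was 0.535% with at least 3 of the 4 companion genes required and 0.546% without doublets. With Reln at or above ln(6), or merely above 0, it stayed at 0.549%, because these limits kept the same cells. Against excitatory-lineage cells, 2030 higher and 1525 lower genes became 1348 and 885 when all 3 excitatory genes were required; lower genes became 967 without Eomes-positive cells, 938 on the mean of deposited ln values and 943 with library 3 included. With library 3 included and 1 other library left out, 755 to 852 genes were higher and 503 to 550 lower. Leaving out library 1 or 2 from the main comparison left 1 library and could not be fitted, and leaving out library 3 changes nothing there. Without 3 excitatory-lineage cells high in globin the counts were 1964 and 1571. Against neuroblasts, lower genes became 1295 on the mean of ln values. Without the replicate block, 1711 and 1206 genes were called against excitatory-lineage cells and 3303 and 2069 against neuroblasts, within 1.5 times of the blocked counts. Of the genes named in the text that were followed through the alternatives, 98 were called against excitatory-lineage cells, 76 of them under every alternative that tested them, and 100 were called against neuroblasts, 92 of them throughout. Calls against excitatory-lineage cells not already named as lost were lost with library 3 included and 1 other library left out for Bax, Cdkn1a, Fyn, Gad2, Glul, H1f0 and Sfrp1, and with all 3 excitatory genes required for Ppp1r14c. Against neuroblasts, calls were lost on the mean of ln values for Bax, Cxcl14, Egr1 and Tmem258, without the filter on low values for Cxcl14, Egr1, Grin2b and Id2, without library 1 for Egr1 (-0.96), without library 2 for Tmem258 (-0.46), and without library 3 for Egr1 (-0.82) and Grin2b (-0.82). Division genes reversed against excitatory-lineage cells: with all 3 excitatory genes required Birc5 was at 1.12, Mki67 at 0.85 and Top2a at 0.99, without Eomes-positive cells at 0.85, 0.0528 and 0.23, and without dividing cells at 2.04, 1.85 and 0.61. The last run took dividing cells out of the excitatory-lineage group only, so a rise in these values was built in. On the mean of ln values, Islr2 (0.13) and Cdk5r1 (0.0317) reversed against neuroblasts; the cause was not tested. The alternatives that include library 3, leave the block out for all 3 libraries, or drop globin-high cells were chosen after seeing the data. With 16 to 32 Cajal-Retzius cells a library, a gene at 0 may lie under 5.53 CPM.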
